A study of Mus musculus with 10 samples.

Results

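Mitochondrial ribosomal protein genes were followed in fetal mouse oocytes heterozygous or deficient for Taf4b. They were taken as the protein-coding genes of the deposited gene tables whose symbol starts with Mrpl or Mrps followed by a digit, which gave 78 of the 55536 genes in the tables. By the known composition of the mitochondrial ribosome, 51 of the 78 encode proteins of the large subunit and 26 encode proteins of the small subunit. The remaining member, Mrps36, carries the name of a ribosomal protein but encodes a component of the 2-oxoglutarate dehydrogenase complex, and it was kept because the choice was by symbol.

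The mitochondrial ribosome translates the few messages of the mitochondrial genome, which encode core subunits of the respiratory chain and of ATP synthase. Its ribosomal RNAs come from the mitochondrial genome, whereas its proteins are all encoded in the nucleus, made in the cytosol and imported. Some descend from proteins of the bacterial ribosome and others were added in the mitochondrial lineage. Oocytes pass on the mitochondria of the next generation, and human variants in several genes of this machinery are known causes of ovarian insufficiency. TAF4b, the product of Taf4b, belongs to TFIID, the complex that recognises core promoters, and is found mainly in gonads.

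RNA was sequenced from 5 libraries labelled Taf4b-heterozygous and 5 labelled Taf4b-deficient, all from female C57BL/6 embryos at E16.5, late in gestation. All 10 libraries share the Oct4-EGFP transgene, for which the parents were homozygous, and the parents were heterozygous for the Taf4b mutation. By the labels, no library here is wild type for Taf4b. Cells were sorted for green fluorescence after dead cells had been discarded by propidium iodide, and the libraries carry 3 litter dates. Litter date 1 covers heterozygous 1 and 2 and deficient 1, and litter date 2 covers heterozygous 3 and 4 and deficient 2 and 3. Litter date 3 covers heterozygous 5 and deficient 4 and 5. A difference within litter date 1 or 3 therefore rests on 1 library of 1 genotype. The labels do not say whether the 5 libraries of a genotype are separate embryos, so each p-value below rests on how these libraries vary, which may be in part technical variation. In such bulk RNA, fewer cells of a type and less RNA per cell cannot be told apart.

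Total counts ran from 16707200 to 26983600 per library. Taf4b, the targeted gene, had 271, 290, 142, 65.7 and 101 CPM (counts scaled to a common library size, between libraries by trimmed mean of M-values) in heterozygous libraries 1 to 5 and 80.7, 81.7, 80.2, 73.7 and 58.2 CPM in deficient libraries 1 to 5. The library labelled heterozygous 4 lay within the deficient range, so the values of the list and of the members described one by one are also given without it. The Taf4b difference was -1.22 ± 0.351 (log2 fold change, deficient over heterozygous, ± SE), with an edgeR quasi-likelihood adjusted p of 0.155. Germ cell markers summed to 4755 to 8012.5 CPM in the heterozygous group and 4081.5 to 6780 CPM in the deficient group, although Pou5f1 itself (the Oct4 gene) was at 0.173 to 1.16 CPM over all 10. The 7 erythroid markers reached summed CPM of 719 for the library labelled heterozygous 4, 2084 for heterozygous 5 and 1606 for deficient 5, while the other 7 libraries held 65.0 to 222. Of the 7, Slc4a1 was at 0 in 1 library and no other was at 0. The sums of 7 pregranulosa markers spanned 35.0 to 87.4 CPM over the heterozygous and 27.6 to 95.7 CPM over the deficient libraries. Those of 5 macrophage markers were higher, at 99.8 to 187 and 47.0 to 158 CPM. Endothelial markers reached 79.3 CPM, ovarian stroma markers 39.6 CPM and surface epithelium markers 30.7 CPM. The 6 tested germ cell markers all had negative log2 fold changes, with a median of -0.26, as did the 5 macrophage markers, with -0.33. Of the 7 pregranulosa markers 6 were positive.

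Nearly every mitochondrial ribosomal protein gene was expressed above the typical gene in these oocytes. Of the 78 members, 77 passed edgeR's filter on low counts, and 75 of the 77 lay above 4.25 CPM per kilobase of exon, the median of the 14479 protein-coding genes tested. CPM per kilobase is the CPM divided by the length of the gene's merged exons and is used here wherever levels are compared between genes. Merged exons take in every annotated transcript and run from 607 to 8631 bases among the members. Where the message made is shorter than that, the value is too low. The order, span and class medians below thus depend on the annotation. The median member stood at 37.4 CPM per kilobase, with quartiles of 22.6 and 65.6, and 73 members had a mean of at least 10. The 2 tested members below that median were Mrps34 and Mrps30, described below. The member that was not tested was Mrpl53, a large subunit gene on the plus strand of chr6:83109040-83109939 (GRCm38), which had 0 counts in all 10 libraries. Its exons overlap those of the genes Gm42688 and Ccdc142os, so a count of 0 says only that no read was assigned to it.

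Levels ranged over 60.1-fold among the 77 tested members, far more than any of them differed between genotypes. Mrpl20, a large subunit protein, was highest at 195 ± 53.2 CPM per kilobase in heterozygous and 224 ± 29.5 in deficient libraries (mean ± SD, n = 5 each). Mrpl55 followed at 218 ± 46.8 and 199 ± 20.5 CPM per kilobase, and Mrpl54 at 197 ± 59.7 and 192 ± 39.4. These 3 levels lay within one another's spread, so their order is not resolved. Mrps34 was lowest of the tested members at 3.89 ± 1.14 and 3.08 ± 0.805 CPM per kilobase, next to Mrps30 at 4.11 ± 1.82 and 3.81 ± 0.907, and this pair did not differ beyond their spread either. Between the ends lay Mrps7 at 136 ± 75.1 and 115 ± 17.7 and Mrps35 at 9.34 ± 1.00 and 9.79 ± 1.24 CPM per kilobase. These examples were chosen after their values were seen.

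By class, the median level was 42.1 CPM per kilobase for the 50 tested large subunit members and 30.4 for the 26 of the small subunit. Large subunit proteins without a bacterial homologue had a median of 50.1 and those with one 32.7. In the small subunit the order was the other way, 19.1 for proteins without and 46.0 for proteins with a bacterial homologue. The order of the members was nearly the same in both genotypes, with a Spearman correlation of 0.976 between the genotype means across the 77 genes, which share libraries and lengths and are not replicates. In the plot of levels, the points of both genotypes lie side by side for nearly every gene.

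**Figure D1:**
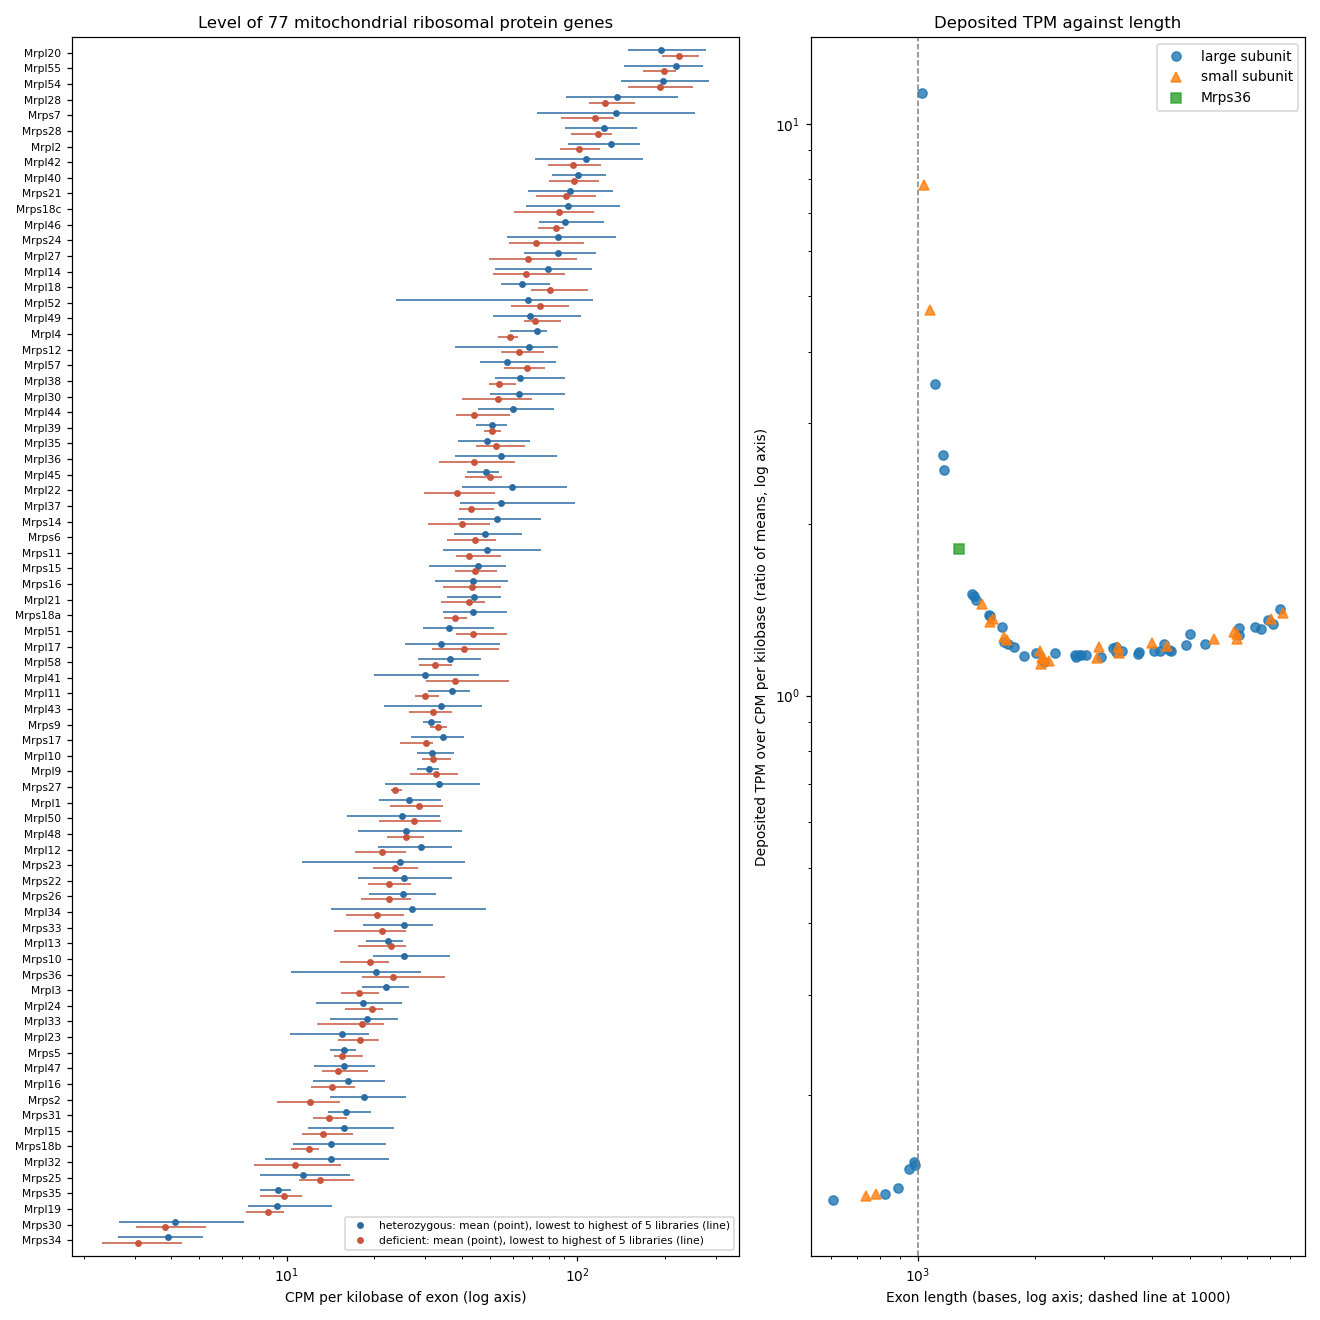
Left, level of the 77 tested members in CPM per kilobase of exon (log axis), ordered by mean, with the mean of 5 libraries as a point and the lowest to highest library as a line, for heterozygous and deficient libraries. Right, the deposited TPM divided by CPM per kilobase for the same genes against exon length (both axes log), where the ratio is about 0.135 for genes under 1000 bases and jumps to its highest values just above 1000 bases.

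The deposited TPM, which are meant to be scaled by length, gave another order and were not used for levels. Each deposited TPM equalled the gene's count times 1 constant per library divided by a whole number per gene, for all 44767 genes with a count (whole to within 1e-06). That number followed the position of the exon length when lengths are sorted as text, with a Spearman correlation of 0.999999849 over 44725 genes, and the length itself with one of 0.0956. Among protein-coding genes the median ratio of TPM to CPM per kilobase was 0.135 under 1000 bases, 3.42 from 1000 to under 1200 bases, 1.20 from 2000 to under 5000 bases and 18.6 from 10000 bases. Of the 9 members with an exon length under 1000 bases, the 8 with counts all ranked lower by TPM than by CPM per kilobase. Mrpl54, with 825 bases, was 3rd of the members by CPM per kilobase and 53rd by deposited TPM, and Mrps28, with 783 bases, was 6th and 64th. The span from the lowest to the highest tested member was 762-fold in deposited TPM. The divisor of a gene is the same in every library, but the constant per library is not the scaling behind CPM. Comparisons of 1 gene between libraries can therefore differ between TPM and CPM. Mrpl1, as an example, averaged 113 CPM over heterozygous and 122 CPM over deficient libraries, but 33.8 and 33.5 in deposited TPM. Whether the divisors shifted the constants was not tested.

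Between genotypes, no mitochondrial ribosomal protein gene passed the test, and the estimated differences were small. With edgeR's quasi-likelihood test, 0 of 77 members had an adjusted p under 0.05, beside 0.0% of the 19244 genes tested, and the smallest adjusted p of a member was 0.202. At an unadjusted p under 0.05 there were 4 members, all lower in deficient oocytes, which is 5.19% of the members beside 16.6% of all genes tested (9.13% lower and 7.45% higher). No member had 5 deficient libraries wholly below or wholly above the 5 heterozygous libraries, beside 3.53% of all genes. In the authors' deposited table, which uses DESeq2, 0 of the 77 members had an adjusted p under 0.05, beside 3.76% of its 31181 genes and 6.55% of those with an adjusted p. Other settings that called genes gave 0 members as well, beside 2.18% of all genes with DESeq2, 2.65% with limma's voom and quality weights, 0.54% with the grouping of libraries that rebuilds the deposited table and 3.07% without heterozygous 1.

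The intervals around the members were narrower than for most genes, so changes of 2-fold were mostly outside them. The 95% interval of the log2 fold change lay within a 2-fold change in either direction for 73 of 77 members, beside 44.7% of all genes tested. The median half-width of that interval was 0.443 for members and 0.693 for all genes. A log2 fold change of at least 0.5 in size was estimated for 2 members, Mrpl22 and Mrps2, beside 32.4% of all genes. All genes tested include many of lower level than the members, and abundant genes vary less in counts. These shares were not taken over genes of the members' level, so they do not set the members apart from such genes. On simulated counts made from these libraries the same test called 12% of 100 genes changed 2-fold and 78% of 100 changed 4-fold. Those genes were drawn at random from all genes above a low level, not from the members, so these rates are not the members' own. A missed call at these sizes does not show that a gene was equal in both genotypes.

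The members leaned slightly below 0. A negative log2 fold change was found for 56 of 77 members (72.7%), beside 51.1% of all genes tested, and the median was -0.11 for members and -0.02 for all genes. Over the 7852 genes with a mean log2 CPM from 4 to 9, the level of most members, the median was -0.05, beside -0.11 for the 75 members among them. The fold changes ran from -0.63 for Mrpl22 to 0.34 for Mrpl41. With limma's voom and quality weights the median was near 0, at -0.01, with 40 of 77 negative, and 0 members were called. Without the library labelled heterozygous 4 the median was -0.14, with 56 negative and 0 called. By litter date, the members' median level differed between deficient and heterozygous libraries by -0.05, -0.15 and -0.07 log2 units in litters 1, 2 and 3. The log2 fold changes of the authors' deposited table were negative for 54 of the 77 members, beside 50.3% of the genes tested here, with a median of -0.12 over members. The members' CPM summed to 10012, 7304, 10378, 8233 and 9496 in heterozygous libraries 1 to 5 and to 8036, 8768, 7382, 9661 and 8839 in deficient libraries 1 to 5. These sums overlapped, with the lowest and the highest of the 10 both heterozygous.

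The share of negative values was higher in the small subunit, at 88.5% beside 66.0% in the large subunit. Of 26 tested small subunit genes, 23 had a negative log2 fold change, with a median of -0.17, and the 3 with positive values were Mrps25 at 0.20, Mrps9 at 0.08 and Mrps35 at 0.07. Of 50 large subunit genes, 33 were negative, with a median of -0.10. Within the large subunit the median was -0.14 for the 30 proteins with a bacterial homologue and -0.04 for the 20 without. Within the small subunit it was -0.11 for 16 and -0.18 for 10. The difference between subunits was not tested, and the small subunit count was 16 of 26 with voom quality weights and without litter date 2.

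**Figure D2:**
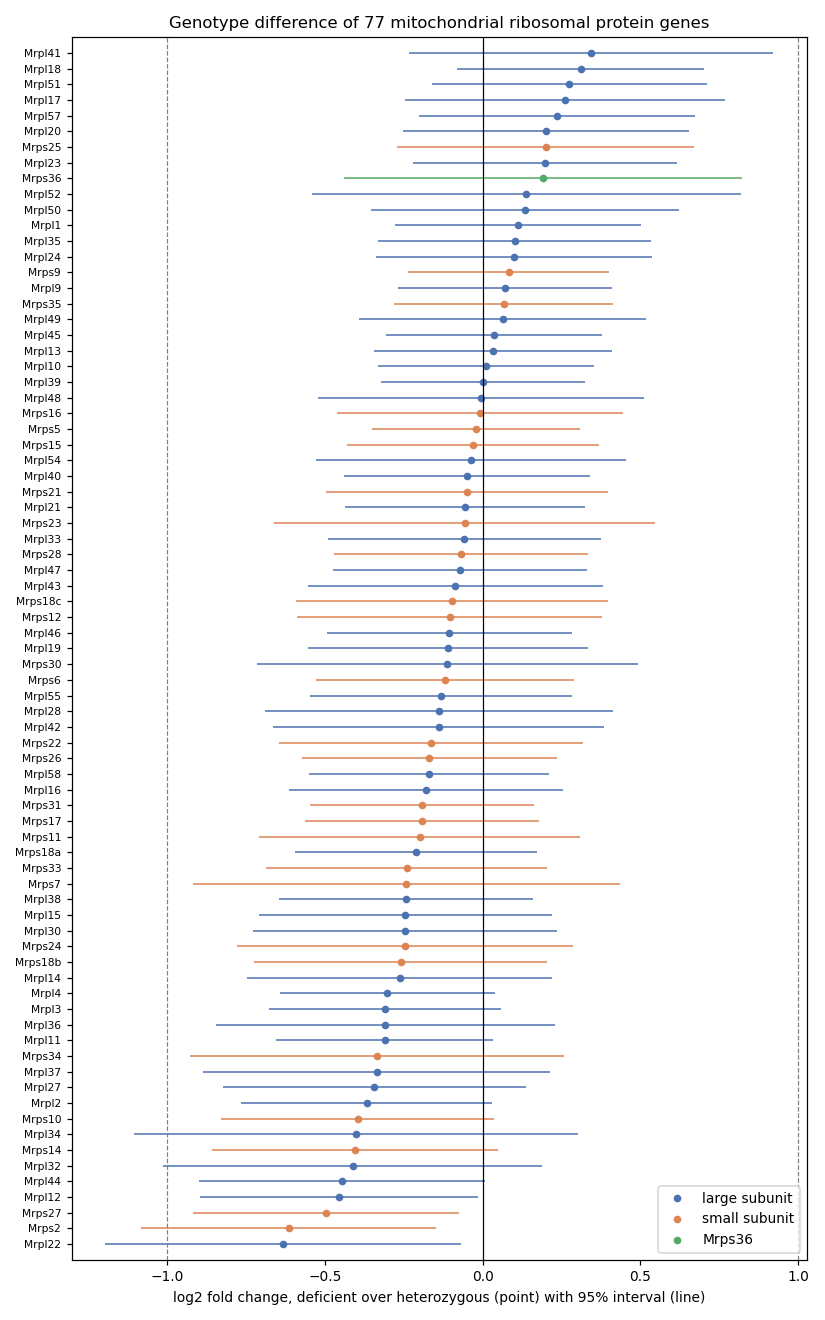
Log2 fold change of deficient over heterozygous libraries (point) with its 95% interval (line) for each of the 77 tested members, sorted, with the subunit in colour and dashed lines at a 2-fold change. The points run from -0.63 to 0.34, 56 of 77 lie left of 0, and all but 4 intervals stay between the dashed lines.

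Mrps2 encodes a small subunit protein with a bacterial homologue and lies on the plus strand of chr2:28468066-28471178 (GRCm38). It had the smallest p of the members. Its CPM were 42.1, 45.5, 41.1, 64.5 and 75.1 in heterozygous libraries 1 to 5 and 33.0, 27.1, 34.5, 35.8 and 44.6 in deficient libraries 1 to 5. Heterozygous 5 and the library labelled heterozygous 4 were highest, and deficient 5 alone among the deficient libraries reached into the heterozygous range. This gave a log2 fold change of -0.62 ± 0.217 (SE), an edgeR p of 0.0139 and an adjusted p of 0.202. The mean log2 CPM differed by -0.41, -0.75 and -0.91 within the 3 litter dates. Heterozygous 5, the library labelled heterozygous 4 and deficient 5 are also those with the highest erythroid marker sums, and without these 3 the log2 fold change was -0.39, with an edgeR adjusted p of 0.415. Without the library labelled heterozygous 4 alone it was -0.54. Leaving out the 3 keeps heterozygous 1 to 3 and deficient 1 to 4. It removes the highest values of both genotypes, more of them heterozygous, for Mrps2 and for Mrpl22 and Mrpl12 below. A smaller difference in that setting is therefore no test of a link to erythroid markers, which was not tested. For Mrps2 the authors' deposited table gives -0.47 as the log2 fold change and 0.0553 as the adjusted p, the smallest of any member in it.

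Mrpl22, a large subunit protein that lines the peptide exit tunnel, lies on the plus strand of chr11:58171661-58179565. It had 43.8, 39.2, 43.9, 75.3 and 90.3 CPM in heterozygous libraries 1 to 5 and 34.1, 41.3, 29.2, 32.9 and 51.1 CPM in deficient libraries 1 to 5. As for Mrps2, heterozygous 5, the library labelled heterozygous 4 and deficient 5 were the highest of their genotypes, and the genotypes overlapped. The log2 fold change was -0.63 ± 0.261, with an edgeR adjusted p of 0.255, and -0.30 without the 3 libraries high for erythroid markers, with an adjusted p of 0.532. It was -0.53 without the library labelled heterozygous 4.

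Mrpl12, the homologue of the bacterial stalk protein, which has also been described as a partner of the mitochondrial RNA polymerase, lies on the plus strand of chr11:120484613-120489065. Its CPM were 36.1, 31.5, 44.7, 53.4 and 57.0 in heterozygous libraries 1 to 5 and 31.1, 35.1, 26.3, 30.5 and 39.3 in deficient libraries 1 to 5. All 5 deficient libraries lay below the heterozygous median, while deficient 5 exceeded 2 heterozygous libraries. The log2 fold change was -0.46 ± 0.204, with an edgeR adjusted p of 0.285, and -0.28 without the 3 libraries high for erythroid markers. It was -0.38 without the library labelled heterozygous 4.

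Mrps27, a small subunit protein with a pentatricopeptide repeat domain and no bacterial homologue, behaved otherwise across libraries. It lies on the plus strand of chr13:99344786-99415562. Its CPM were 70.7, 74.7, 96.7, 61.1 and 45.5 in heterozygous libraries 1 to 5 and 50.2, 52.3, 47.8, 47.8 and 49.0 in deficient libraries 1 to 5. The deficient libraries all lay between 47.8 and 52.3 CPM, and heterozygous 5 was the lowest of all 10. The log2 fold change was -0.50 ± 0.196, with an edgeR adjusted p of 0.239, -0.71 without the 3 libraries high for erythroid markers and -0.54 without the library labelled heterozygous 4. The mean log2 CPM differed by -0.53, -0.62 and 0.09 within the 3 litter dates. Litter 3, which did not share the direction, has heterozygous 5 as its only heterozygous library.

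Most other members with the smallest p-values of their class had the same sign. Mrpl44, a mitochondria-specific large subunit protein with an RNase III fold, stood at -0.45 ± 0.211 (log2 fold change ± SE) with an edgeR adjusted p of 0.308, and at -0.28 without the 3 libraries high for erythroid markers. Mrpl2, a core protein near the peptidyl transferase centre, stood at -0.37, Mrps10 at -0.40 and Mrps14 at -0.40. Mrps34 was at -0.34. Mrpl37 was at -0.34 and Mrps18b at -0.26, but without heterozygous 3 they were at -0.02 and -0.06. Without the 3 libraries high for erythroid markers, Mrpl37, Mrps18b and Mrps10 became more negative, at -0.53, -0.50 and -0.54. Mrps14 became less negative in that setting, at -0.25. Of the 3 members with the smallest p in each class, Mrpl51 alone had a positive estimate, at 0.27 ± 0.203 with an edgeR adjusted p of 0.509. Mrpl18, which is not among the 3 of its class, was at 0.31 with an edgeR adjusted p of 0.403. Mrpl55, Mrps12 and Mrps18c, which the naming rule takes for the highest deposited TPM but which rank 2nd, 20th and 11th by CPM per kilobase, were at -0.13, -0.10 and -0.10.

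Members linked in people to ovarian insufficiency or Perrault syndrome, which joins hearing loss with ovarian insufficiency, did not pass the test. Mrps22, a mitochondria-specific small subunit protein, had 91.7, 70.0, 75.0, 119 and 147 CPM in heterozygous libraries 1 to 5 and 83.2, 79.6, 75.9, 104 and 107 CPM in deficient libraries 1 to 5. The deficient values fell inside the heterozygous range, and the log2 fold change was -0.16, with a 95% interval from -0.65 to 0.32. It was -0.10 without the library labelled heterozygous 4, and its sign turned without heterozygous 5, at 0.01, and without the 3 libraries high for erythroid markers, at 0.12. Mrps7 had 337, 234, 528, 164 and 150 CPM in heterozygous and 235, 267, 233, 277 and 183 CPM in deficient libraries 1 to 5. Heterozygous 3 stood far above the rest for Mrps7, and the log2 fold change was -0.24, with an interval from -0.92 to 0.43. Its sign turned without heterozygous 3, at 0.11. With the library labelled heterozygous 4 left out, it was -0.39, and without the 3 libraries high for erythroid markers it was -0.54. Mrpl50 averaged 52.9 ± 16.6 CPM over heterozygous and 58.1 ± 9.84 CPM over deficient libraries (mean ± SD, n = 5 each), a log2 fold change of 0.14 with an interval from -0.35 to 0.62. Without the library labelled heterozygous 4 it was 0.01, and without the 3 libraries high for erythroid markers it was -0.00112.

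**Figure D3:**
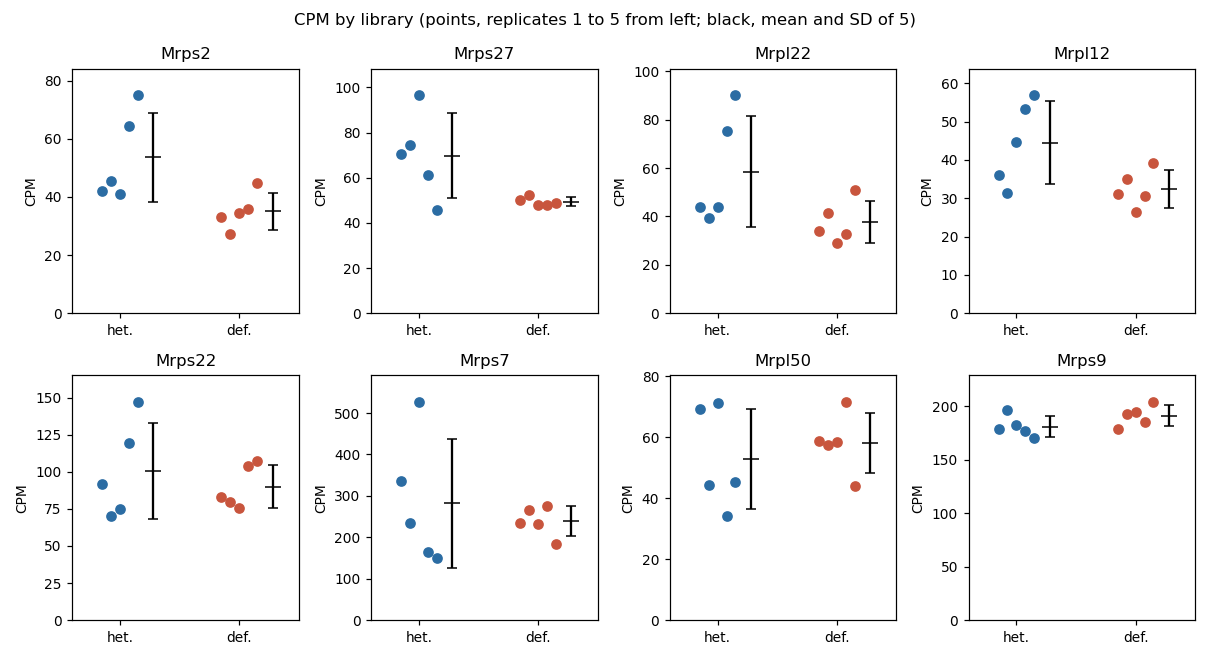
CPM of 8 members in each library, heterozygous (het.) and deficient (def.), with replicates 1 to 5 from left to right as points and the mean and SD of 5 in black, each panel from 0. Mrps2, Mrpl22 and Mrpl12 are highest in heterozygous 4 and 5, Mrps7 and Mrps27 in heterozygous 3, and Mrps9 lies between 170 and 204 CPM in all 10 libraries.

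The heterozygous libraries differed more from one another than the deficient libraries did, and the members shared this with most genes. The range of log2 CPM over 5 libraries had a median of 0.87 over members in heterozygous and 0.54 in deficient libraries, beside 1.33 and 0.93 over all genes tested. The heterozygous range was the larger one for 69 of 77 members, beside 75.0% of all genes. A range over 1, which is 2-fold, was seen for 28 members in heterozygous libraries and for 0 in deficient libraries. The median over all genes tested was itself above 1 in heterozygous libraries, at 1.33, and below 1 in deficient libraries, at 0.93. Since abundant genes vary less in counts, the 75 members with a mean log2 CPM from 4 to 9 were set beside the 7852 genes of the same levels. Their median ranges were 0.87 and 0.52, against 1.05 and 0.67 for those genes.

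Some members were steady and others swung widely among the heterozygous libraries. Mrps9 had the smallest heterozygous range, with 179, 196, 183, 177 and 170 CPM, and Mrpl9 and Mrps5 followed with ranges of 0.26 and 0.30 log2 units. Mrpl52 had the widest, with 89.0, 61.4, 26.5, 73.7 and 125 CPM in heterozygous libraries 1 to 5 against 65.3 to 104 CPM in the deficient libraries. Its low value came from heterozygous 3 and its high value from heterozygous 5. Mrps23 had the same 2 extremes, at 17.6 and 63.9 CPM, and Mrps7 was reversed, highest in heterozygous 3 and lowest in heterozygous 5. Mrpl34 ran from 8.65 CPM in heterozygous 2 to 29.5 CPM in heterozygous 5.

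Over all members, heterozygous 5 held the highest CPM of the 10 libraries for 27 genes and heterozygous 3 for 25. The same pair held it most often over all genes tested, at 18.5% and 19.0%. The classes differed in which of this pair it was. Heterozygous 5 was highest for 13 of 30 large and 7 of 16 small subunit genes with a bacterial homologue, and heterozygous 3 for 7 and 3 of them. Among genes without a bacterial homologue, heterozygous 3 was highest for 9 of 20 large and 6 of 10 small subunit genes, and heterozygous 5 for 5 and 2. The lowest CPM fell in deficient 3 for 28 genes, in heterozygous 2 for 18 and in the library labelled heterozygous 4 for 13. Over all genes tested these 3 libraries held the lowest CPM for 9.27%, 5.57% and 11.5%. These counts describe single libraries, and no difference between the classes was tested.

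The level of the whole list in each library, taken as the median over members of log2 CPM after subtracting the mean of each gene over the 10 libraries, moved within a narrow band. It was 0.14, -0.26, 0.08, -0.01 and 0.17 in heterozygous libraries 1 to 5 and -0.11, 0.01, -0.25, 0.13 and 0.06 in deficient libraries 1 to 5. Heterozygous 2 and deficient 3 were lowest, and the genotypes overlapped over nearly their whole ranges. Related lists, described below, spanned less or more. The span was 0.24 for mitochondrial translation factors and 0.25 for mitochondrial DNA and RNA. For mitoribosome assembly it was 0.50, and for nuclear genes of oxidative phosphorylation 0.65. Cytosolic ribosomal protein genes, which build the ribosomes of the cytosol, were taken by symbol. The 83 genes so taken include ribosomal protein-like genes such as Rpl7l1. They spread much further, from -1.28 in heterozygous 3 to 0.44 in deficient 5, where the mitochondrial ribosomal protein genes stood at 0.08 and 0.06. Their median log2 fold change was 0.37, with 7 of 83 negative and 0 called. The 13 protein-coding genes of the mitochondrial genome, whose messages the mitochondrial ribosome reads, were also lowest in heterozygous 3, at -1.42, with a median log2 fold change of 0.07. With each library left out in turn, that median ran from -0.19 to 0.23, so its sign was not settled. The 2 ribosomal RNAs of the mitochondrial genome, mt-Rnr1 and mt-Rnr2, were both at positive log2 fold changes, 0.44 and 0.43, with edgeR adjusted p-values of 0.445 and 0.543. Their level was lowest in heterozygous 3, at -1.04. The members' level of 0.08 in that library covers classes that differ, from -0.04 for large subunit genes with a bacterial homologue to 0.32 and 0.44 for large and small subunit genes without one.

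**Figure D4:**
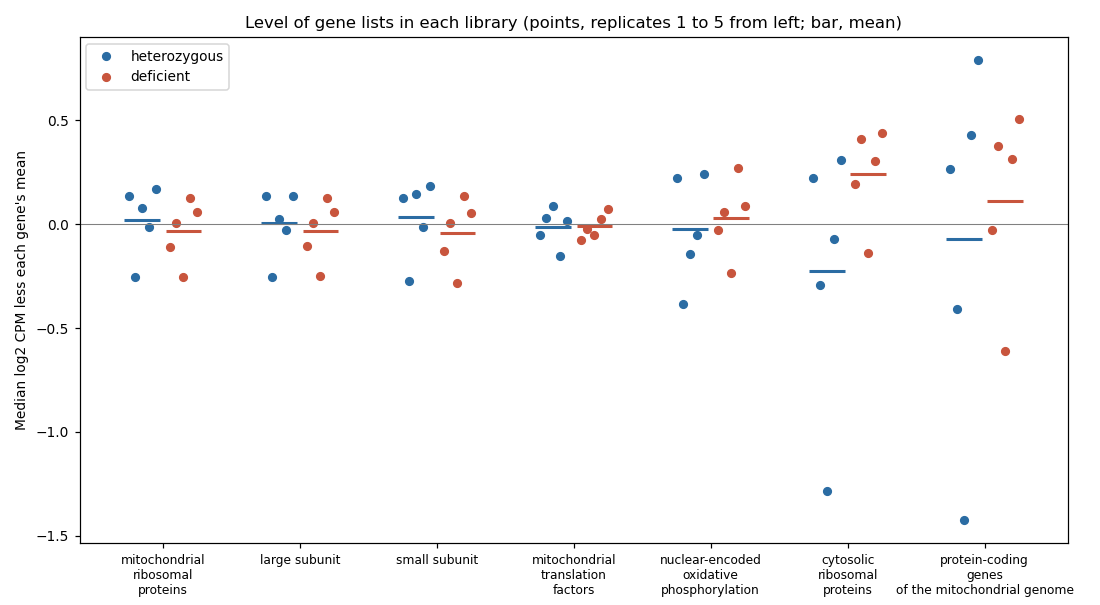
Level of 7 gene lists in each library as the median log2 CPM less each gene's mean, with replicates 1 to 5 of each genotype from left to right as points and the mean of 5 as a bar. The mitochondrial ribosomal protein genes lie between -0.26 and 0.17, while cytosolic ribosomal protein genes and genes of the mitochondrial genome reach -1.28 and -1.42 in heterozygous 3.

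Genes that act with the mitochondrial ribosome gave 0 calls by edgeR in every list. Counts at an unadjusted p under 0.05 are read beside the 16.6% of all genes tested (9.13% lower and 7.45% higher), whereas the ribosomal proteins were at 5.19%. The 5 tested mitoribosome proteins without an Mrp symbol had a median log2 fold change of -0.11, with 0 at an unadjusted p under 0.05. Examples are Ptcd3 at -0.18 and Aurkaip1 at -0.15. Of 27 mitoribosome assembly genes, 5 had an unadjusted p under 0.05 with lower and 1 with higher values in deficient libraries, 22.2% of the list, and the median was -0.26. Fastkd2, an RNA-binding protein needed for large subunit assembly, had 63.9, 73.6, 95.3, 83.3 and 81.3 CPM in heterozygous and 45.9, 52.9, 47.4, 45.4 and 42.3 CPM in deficient libraries 1 to 5. Its genotypes did not overlap, and the log2 fold change was -0.76 with an edgeR adjusted p of 0.116. Rbfa, a small subunit maturation factor, was at -0.63, and Mettl17, a protein associated with the maturing small subunit, was at -1.30 on 3.16 to 22.7 CPM, and at -0.50 without the 3 libraries high for erythroid markers.

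Of 17 mitochondrial translation factors, 3 had an unadjusted p under 0.05, all lower in deficient libraries. That is 17.6% of the list, beside 9.13% of all genes tested that were lower and 16.6% in either direction. The 3 were the elongation factors Tsfm, at -0.62, and Gfm1, at -0.41, and the release factor Mtrf1, at -0.89. Without the 3 libraries high for erythroid markers Mtrf1 was at -0.43. The list's median was -0.12, and 0.00134 with voom and quality weights. Of 20 mitochondrial aminoacyl-tRNA synthetases and amidotransferase subunits, which charge the tRNAs, 4 were lower and 1 higher at that threshold, 25.0% in all, with a median of -0.15. The higher one, the leucyl-tRNA synthetase Lars2, had 3627, 2368, 380.5, 2012 and 2632 CPM in heterozygous libraries 1 to 5 and 7144, 10217, 6829, 5955 and 5354 CPM in deficient libraries 1 to 5, without overlap. Its log2 fold change was 1.69 with an edgeR adjusted p of 0.145. Whether all reads counted for Lars2 come from its own message was not tested. The amidotransferase subunit Gatb, at -0.65, and the phenylalanyl-tRNA synthetase Fars2, at -0.57, were on the other side. They averaged 157 and 130 CPM over heterozygous and 100 and 87.8 CPM over deficient libraries, far below Lars2.

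Of 25 genes for mitochondrial DNA and RNA upkeep, 4 had an unadjusted p under 0.05, all lower, with a median of -0.17, a share near that of all genes. Examples are the mitochondrial RNase P nuclease Prorp at -0.53, the transcription factor Tfb2m at -0.48 and the RNA helicase Supv3l1 at -0.37. Of 17 protein import genes 2 did (11.8%), with a median of -0.15, namely the presequence peptidase subunit Pmpca at -0.72 and the outer membrane pore Tomm40 at -0.64. Of 81 nuclear genes of oxidative phosphorylation 3 did (3.70%), all lower, with a median of 0.02, and the smallest p was that of Atp5a1 at -0.63. Regulators of mitochondrial biogenesis had a median of 0.15 over 13 genes, which was -0.07 without the 3 libraries high for erythroid markers, with Sp1 at 0.58 and Gabpb1, a subunit of the ETS-family factor GABP, at -0.52. Of 13 genes linked to ovarian insufficiency or Perrault syndrome, 5 had an unadjusted p under 0.05 (38.5%), a count that includes Lars2 with the limit given above. These were Lars2, Hars2 at -0.50 and at -0.33 without the 3 libraries high for erythroid markers, Prorp, Clpp at -0.51 and Aars2 at -0.61, and none of the 3 ribosomal proteins of that list was among them.

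Promoters of mitochondrial ribosomal protein genes were described by sequence, since TAF4b acts at core promoters and since these genes share known classes of activators. RefSeq promoter windows of GRCm38.p6, from 250 bases before to 50 bases after the annotated start, were matched by symbol to 69 of the 78 members with 75 windows. Each motif was searched on both strands. The half-site TGCGCA of NRF1, an activator of nuclear genes for mitochondria, was in 29.3% of member windows, beside 9.99% of 20254 windows of protein-coding genes and 7.76% of all 32851 windows. The ETS core CCGGAAG, the kind of site bound by GABP, was in 34.7% of member windows, beside 11.9% and 8.86%. The YY1 core ATGGCGG was in 17.3%, beside 5.37% and 4.05%. In the 250 bases before the start alone, the NRF1 half-site was in 25.3% of member windows, beside 8.26% of protein-coding and 6.43% of all windows, and the ETS core in 24.0%, beside 9.26% and 6.91%. The YY1 core was there in 1.33% of member windows, below the 2.61% and 2.21% of the others, so most of its matches lay in or across the 50 bases after the start.

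Other promoter elements were counted in the same way. The TATA box TATAAA was in 6.67% of member windows, beside 12.2% of protein-coding and 13.6% of all windows. CCAAT was in 40.0%, beside 37.8% and 37.4%, and the GC box GGGCGG in 52.0%, beside 47.7% and 35.7%. The E-box CACGTG was in 9.33%, beside 8.05% and 7.15%. Some members, such as Mrpl2, have overlapping windows, which are not independent. Counted by member, the TATA box was in 5, CCAAT in 27, the GC box in 34 and the E-box in 5 of 69. The NRF1 half-site was in 21, the ETS core in 26 and the YY1 core in 13 of 69. The median GC content was 58.7% in member windows and 57.0% in windows of protein-coding genes, and the median number of CpG was 21 and 14. NRF1 half-sites, GC boxes and ETS cores are rich in G and C, and the shares were not corrected for this. A match of letters is not a bound site.

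**Figure D5:**
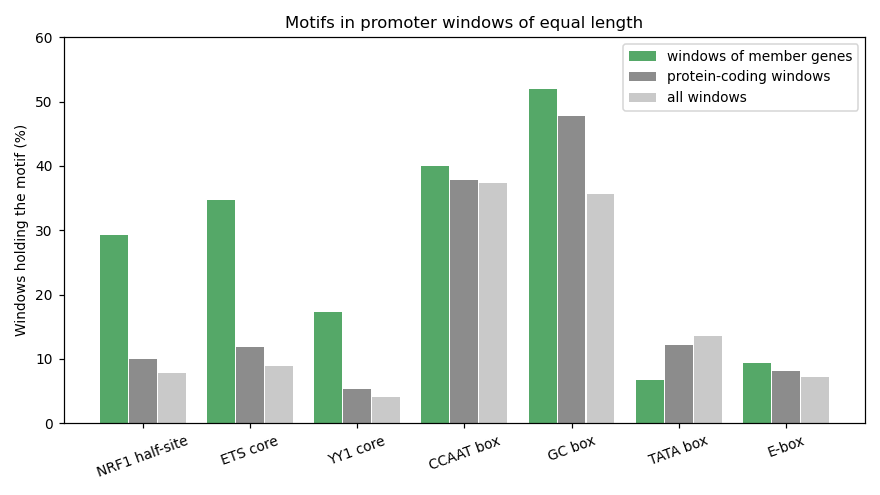
Share of promoter windows that hold each of 7 motifs on either strand (in percent, axis from 0), for 75 windows of mitochondrial ribosomal protein genes, for 20254 windows of protein-coding genes and for all 32851 windows. The bars of member genes for the NRF1 half-site, the ETS core and the YY1 core, at 29.3%, 34.7% and 17.3%, stand above those of protein-coding genes at 9.99%, 11.9% and 5.37%.

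Stretches of 120 bases next to the start are shown for 5 members, with the listed motifs in capitals. Mrps2, Mrpl22 and Mrpl12 are shown because they have 3 of the 4 smallest p-values, Mrps22 for its link to ovarian insufficiency and Mrpl58, a peptidyl-tRNA hydrolase built into the large subunit, because it holds both an NRF1 half-site and an ETS core. They come from RefSeq windows on GRCm38.p6, at chr2:28467946-28468065, chr11:58171544-58171663, chr11:120484517-120484636, chr9:98601680-98601799 and chr11:115403632-115403751 in that order. All are on the plus strand but that of Mrps22, which is on the minus strand, and each is written 5′ to 3′ in the direction of transcription.
Mrps2: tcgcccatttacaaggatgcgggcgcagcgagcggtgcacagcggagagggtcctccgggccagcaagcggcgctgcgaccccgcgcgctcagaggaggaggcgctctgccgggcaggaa
Mrpl22: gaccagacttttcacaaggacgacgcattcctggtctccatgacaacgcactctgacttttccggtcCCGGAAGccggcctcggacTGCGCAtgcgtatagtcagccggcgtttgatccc
Mrpl12: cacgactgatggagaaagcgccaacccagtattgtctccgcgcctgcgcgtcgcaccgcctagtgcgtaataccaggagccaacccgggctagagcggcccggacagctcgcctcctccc
Mrps22: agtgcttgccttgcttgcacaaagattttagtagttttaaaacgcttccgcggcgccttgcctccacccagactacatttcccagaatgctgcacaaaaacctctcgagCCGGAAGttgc
Mrpl58: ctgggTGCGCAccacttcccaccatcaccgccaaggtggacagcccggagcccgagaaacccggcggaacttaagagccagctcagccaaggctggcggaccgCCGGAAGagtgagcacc
Mrpl22 holds an ETS core followed by an NRF1 half-site, and Mrps22 holds the ETS core alone. None of the 7 motifs is in the stretches of Mrps2 and Mrpl12.

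Counts of some members could hold reads of other genes. Exons of 33 members overlap those of another annotated gene, on the same strand for 8 and on the opposite strand for 28, and the strand setting of the counting is not given in the sources used here. There are 5 annotated pseudogenes named after members, of which Mrpl23-ps1 and Mrpl48-ps passed the filter on low counts. Values of Mrpl23, Mrpl48 and Mrps36 are uncertain to that extent.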

How the data were processed

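Gene counts, whole numbers, were deposited by the authors. Per the submitters' processing notes the steps included Trim Galore 0.5.0, HISAT2 2.1.0 with GRCm38 and, for counting, featureCounts (Subread 1.6.2), and StringTie 1.3.3b is named for the deposited TPM. The authors also deposited a DESeq2 table with log2 fold changes, a score (the Wald statistic), mean normalized counts as signal, p-values and adjusted p-values, per the file headers. How strands and multi-mapped reads were counted is not given in the sources used here. Genes without a symbol took 0.0632% to 0.0945% of the counts.

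The quasi-likelihood test of edgeR 4.0.16 (R 4.3.3), two-sided and with genotype as the only term, was run on the counts after TMM scaling and edgeR's expression filter, with Benjamini-Hochberg adjustment over the 19244 genes tested. The test was tested on simulated data. SE is the size of a fold change over the square root of F. Log2 CPM used a prior count of 2. Levels per kilobase used merged exons of GENCODE M21, whose coordinates matched those of the files for all 78 members. The design had assumed that the deposited TPM could serve for levels, and CPM per kilobase replaced them after the data were seen.

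The members, gene lists, motifs and subunit classes were chosen with earlier results of these data known. Named genes are Taf4b and, by rule, the 3 members with the smallest p in each class, those highest and lowest in TPM, those with the widest and narrowest heterozygous range, members linked to ovarian insufficiency, members not tested, and up to 3 genes of each other list. Alternatives were other scalings and filters, DESeq2 1.42.0, limma 3.58.1 (voom with quality weights, or log2 TPM plus 1 or 0.1), a term for litter date or for replicate number, and libraries or litters left out. A grouping of the libraries in 3 levels, with which a DESeq2 refit matched the authors' log2 fold changes to within 0.00555, was added after the data were seen.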

Additional observations from a re-analysis of the deposited data

Results flagged for a closer look

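In 2 of 86 groups of 5 libraries of named genes and list levels, 1 library lay apart from the other 4 by Dixon's criterion, which chance meets in about 1 in 20 groups. Mrpl51 had a log2 CPM of 7.85 in deficient 4, against 7.27 to 7.40 in the other deficient libraries. Mrps5 had a log2 CPM of 6.92 in deficient 4, against 6.58 to 6.63 in the other deficient libraries.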

How the results depend on the processing

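Members called were 0 under all 26 alternatives, and their median log2 fold change stayed negative, from -0.18 with log2 TPM plus 0.1 to -0.01 with voom quality weights. The median over all genes tested was 0.02 and 0.03 in these 2 settings. It moved with the setting as well, from -0.10 with log2 TPM plus 1 at a mean TPM of at least 1 to 0.12 without the low-count filter. The members' medians are not corrected for this. Leaving out each library in turn gave medians from -0.18 to -0.05, 46 to 59 negative members and 0 called. Of 624 values of 24 named members under these alternatives, 0 passed the threshold and 32, in 12 genes, had the other sign. Calls over all genes depended on the setting: 679 with DESeq2, 510 with voom quality weights, 251 without the low-count filter and 104 with the grouping of the deposited table. Leaving out 1 library gave from 0 to 606 calls, with 606 without heterozygous 1 and 1 without heterozygous 2. The cause was not tested.

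Replicate numbers did not pair the libraries: same-numbered deviations correlated at 0.169, 0.0346, 0.118, -0.262 and 0.593, and 1 of 5 libraries correlated best with its own number. With replicate number as a block, 1 gene and 0 members were called and the members' median was -0.07.

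For mitochondrial DNA and RNA the median was -0.26 with log2 TPM plus 0.1, -0.24 with log2 TPM plus 1 under both filters and -0.0798 with voom, and from -0.22 to -0.0715 with each library left out, the latter without heterozygous 3. For translation factors it was -0.21 with log2 TPM plus 0.1 and plus 1 under both filters and 0.00134 with voom, and from -0.14 to -0.0238 with each library left out, the latter without heterozygous 5. Biogenesis regulators were at -0.0688 without the libraries high for alpha-globin. The span of member levels was 762-fold in deposited TPM. Before the start alone, the ETS core was in 24.0% and the YY1 core in 1.33% of member windows. Low counts touch few members: all tested but Mrps34, at 7.19 CPM, had means above 10 CPM.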
